A study of Mus musculus with 140 samples.

Results

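Silencers in lincRNA genes are described here: the autosomal intervals of 2 genome-wide silencer lists whose midpoint lay in the body of a gene typed lincRNA and outside every protein-coding gene body (mm10, GENCODE M21 basic annotation). The rule used position only, and no measured value. It found 4711 of 115165 intervals in the list of mouse embryonic stem cells (mESCs) and 3648 of 89596 in the list of mouse embryonic fibroblasts (MEFs), 8359 of 204761 in all. On the autosomes these were 4.17% of the 112874 mESC intervals and 4.15% of the 87806 MEF intervals.

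The study mapped silencers, stretches of DNA that reduce transcription, by Ss-STARR-seq: pieces of sonicated mouse genome were inserted in a reporter, and reporter RNA was sequenced along with the plasmid pool. The labels describe 56 mESC reporter RNA libraries, in 3 output sets numbered 2, 4 and 5 with 20, 20 and 16 libraries, from cells grown in N2B27-2i/LIF medium. They describe 64 MEF reporter RNA libraries, in 4 output sets of 16, from cells grown in DMEM with fetal bovine serum, and 20 libraries of the input plasmid pool that both cell types share. No genotype or treatment separates the groups beyond the cell type, and each cell type has 1 interval list, so no value below has a replicate check and intervals are not replicates of a cell type. In each list an interval carries 1 fold, a linear ratio deposited by the authors, with a floor of 2 in both lists. The sources used here do not say which libraries enter the ratio, so a high fold is not read as strong silencing, and folds of the 2 lists are set side by side without a comparison of their levels.

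Long intergenic noncoding RNA (lincRNA) genes are mostly transcribed outside protein-coding genes into RNAs, often spliced, that are not translated. Some of these RNAs act on chromatin or on nearby genes, as Meg3 and Hottip do, some build nuclear bodies, as Neat1 does, and some transcripts mainly carry microRNAs that are cut out of them. Many annotated lincRNA genes have no known role, and DNA elements inside their bodies can act on other genes whether or not the RNA does. A reporter assay measures a fragment on a plasmid, away from its gene.

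The sequences of a few intervals show what the lists contain. The first 3 are the mESC members with the highest folds, at 117, 70.5 and 43.4. They lie in introns of Platr22, Gm49736 and A730063M14Rik, and the letters in capitals are the longest stretch, of 18 bases, that all 3 hold. All sequences are the plus strand of GRCm38.p6 from RefSeq, 5′ to 3′, from the base after the listed start through the listed end.
Platr22, mESC list, chr1:136702251-136702551: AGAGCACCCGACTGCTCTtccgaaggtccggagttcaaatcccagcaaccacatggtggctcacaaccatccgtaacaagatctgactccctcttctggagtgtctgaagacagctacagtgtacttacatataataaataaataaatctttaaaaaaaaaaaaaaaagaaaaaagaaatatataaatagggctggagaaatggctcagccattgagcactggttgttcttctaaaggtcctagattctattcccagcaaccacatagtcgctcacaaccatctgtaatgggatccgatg
Gm49736, mESC list, chr16:31413435-31413685: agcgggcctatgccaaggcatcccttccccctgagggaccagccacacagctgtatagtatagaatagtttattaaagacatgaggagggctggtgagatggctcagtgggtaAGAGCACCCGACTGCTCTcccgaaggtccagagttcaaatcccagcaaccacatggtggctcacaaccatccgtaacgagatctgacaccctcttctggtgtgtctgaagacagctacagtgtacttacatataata
A730063M14Rik, mESC list, chr10:127073139-127073239: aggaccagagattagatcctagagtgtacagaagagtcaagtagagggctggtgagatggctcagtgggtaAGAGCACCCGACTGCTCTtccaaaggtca

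The shared stretch ran in the same orientation in all 3 intervals. As background, letters of this kind are those of the B2 family, a short interspersed repeat of rodents; no repeat annotation beyond soft masking was used here. The 18 bases occurred 10020 times in the autosomes on either strand. Of these copies, 9.06% lay inside an mESC interval and 3.11% inside a MEF interval. Among lincRNA members the stretch was held by 28 mESC intervals (0.594%) and 7 MEF intervals (0.192%), beside 0.813% and 0.362% of all other autosomal intervals of the same lists. The 28 mESC members had a median fold of 2.75 and 3 of them were above 10, while the 7 MEF members had a median of 2.54 and a highest fold of 3.10. Since the stretch was taken from the highest mESC folds, its choice favoured a higher share of copies in the mESC list. The mESC list is also longer, with 112874 autosomal intervals beside 87806 in the MEF list. These shares and folds are therefore a description only and do not compare the lists.

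The next pair are MEF members of highest fold, 22.7 in C230088H06Rik and 21.8 in Gm47499. In the second, capitals mark bases that the mESC list also covers, where the fold was 7.23.
C230088H06Rik, MEF list, chr4:147481012-147481149: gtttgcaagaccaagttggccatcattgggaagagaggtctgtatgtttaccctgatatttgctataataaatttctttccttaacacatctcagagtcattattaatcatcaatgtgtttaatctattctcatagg
Gm47499, MEF list, chr9:79187501-79187801: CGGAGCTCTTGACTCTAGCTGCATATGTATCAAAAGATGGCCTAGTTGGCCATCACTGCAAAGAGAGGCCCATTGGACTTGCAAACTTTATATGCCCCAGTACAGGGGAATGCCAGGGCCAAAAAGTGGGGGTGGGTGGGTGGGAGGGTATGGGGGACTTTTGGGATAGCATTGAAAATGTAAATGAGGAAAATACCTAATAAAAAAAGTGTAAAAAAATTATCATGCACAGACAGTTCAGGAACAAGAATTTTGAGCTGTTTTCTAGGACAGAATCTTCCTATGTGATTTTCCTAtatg

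The last group lies in exons of lincRNA genes. Platr1 and Platr23 belong to a set of transcripts named for their association with pluripotency in mESCs, and the Platr1 interval has the same edges in both lists. Capitals mark bases that both lists cover.
Platr1, mESC and MEF lists, chr1:134439001-134439101: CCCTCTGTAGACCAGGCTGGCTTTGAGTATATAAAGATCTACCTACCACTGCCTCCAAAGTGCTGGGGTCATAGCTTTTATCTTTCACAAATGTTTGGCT
Platr23, mESC list, chr1:136623401-136623501: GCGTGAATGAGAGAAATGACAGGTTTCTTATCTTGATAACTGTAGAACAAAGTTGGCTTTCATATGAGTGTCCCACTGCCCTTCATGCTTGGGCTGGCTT
Platr23, MEF list only, chr1:136623113-136623313: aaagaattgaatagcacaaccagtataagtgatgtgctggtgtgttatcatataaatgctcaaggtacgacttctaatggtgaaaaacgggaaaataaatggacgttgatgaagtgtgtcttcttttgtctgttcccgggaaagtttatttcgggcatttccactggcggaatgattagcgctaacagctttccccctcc

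Silencers were not denser in lincRNA genes than elsewhere on the autosomes. The 105.9 Mb of lincRNA body outside protein-coding genes held 44.5 mESC intervals per Mb (95% exact Poisson interval 43.2 to 45.8) and 34.5 MEF intervals per Mb (33.3 to 35.6). Protein-coding bodies held 49.6 and 38.4 per Mb, and the remaining autosomal sequence held 45.4 and 35.5 per Mb. Poisson and binomial intervals here cover counting error only and treat intervals as independent, which neighbouring intervals may not be. The density in lincRNA bodies lay below that of protein-coding bodies in both lists with intervals that did not overlap, and its interval held the value of the remaining sequence in both lists. Across chromosomes the share of intervals that were members was highest on chromosome 13, at 7.54% in the mESC list and 6.89% in the MEF list, and lowest on chromosome 11 in the mESC list, at 2.22%, and in the MEF list, at 2.36%.

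**Figure D1:**
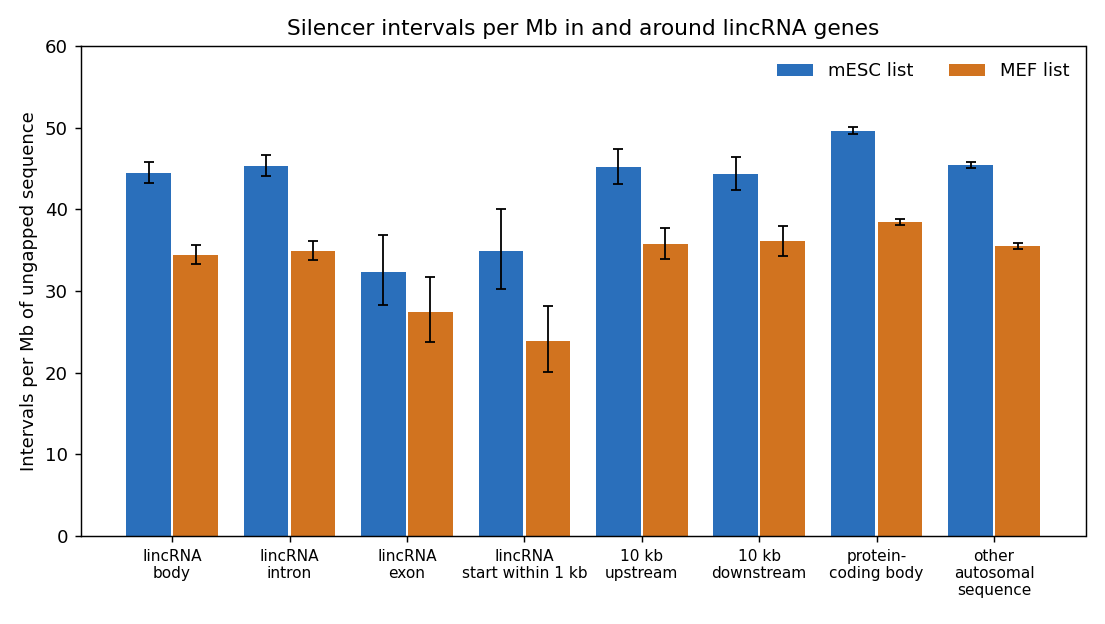
Intervals per Mb of ungapped autosomal sequence (vertical axis) in lincRNA bodies and their parts, in the 10 kb on either side, in protein-coding bodies and in the other autosomal sequence, for the mESC list (blue) and the MEF list (orange); error bars are 95% exact Poisson intervals of the count. LincRNA exons held 32.4 mESC and 27.5 MEF intervals per Mb and stood below introns in both lists.

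Within lincRNA genes the lower values were in exons and near starts. Exons held 32.4 mESC intervals per Mb (28.3 to 36.9) and 27.5 MEF intervals per Mb (23.7 to 31.7), beside 45.3 (44.0 to 46.7) and 34.9 (33.8 to 36.1) in introns. Exons made up 6.53% of the body sequence but held 224 mESC members (4.75%) and 190 MEF members (5.21%). Sequence within 1 kb of an annotated start held 34.9 mESC intervals per Mb (30.3 to 40.1) and 23.8 MEF intervals per Mb (20.0 to 28.2). The intervals of exons and introns did not overlap in either list, and those of starts lay below those of whole bodies in both. The 10 kb upstream of lincRNA genes held 45.2 mESC and 35.7 MEF intervals per Mb, and the 10 kb downstream held 44.4 and 36.1, so the flanks stood near the bodies. Over the length of the genes the members were spread evenly. This was counted gene by gene in lincRNA genes of at least 10 kb, with 4396 mESC and 3436 MEF positions. From the start to the end of the gene, the 5 equal parts held between 19.47% and 21.13% of the mESC positions and between 19.44% and 20.98% of the MEF positions.

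Of the mESC members, 1625 overlapped a MEF interval by at least 1 bp, which is 34.5% (95% exact binomial interval 33.1 to 35.9), against 36.6 percent of all autosomal mESC intervals. Of the MEF members, 1642 overlapped an mESC interval, which is 45.0% (43.4 to 46.6), against 47.2 percent of all autosomal MEF intervals. The shares among all other autosomal intervals were 36.7% (36.4 to 37.0) and 47.3% (47.0 to 47.7). In both lists the share of lincRNA members found in the other cell type was lower than that of the other intervals, and the counting intervals did not overlap. Merged over both lists the members formed 6706 loci, of which 1606 held intervals of both lists, 3089 of the mESC list only and 2011 of the MEF list only. The overlap had a median of 200 bp, and 142 members of each list had identical edges in the other.

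Members found in both cell types carried somewhat higher folds. In the mESC list the median fold was 2.51 for shared members and 2.34 for members of that list only. In the MEF list these medians were 2.45 and 2.28. The same order held among all other autosomal intervals, with 2.53 and 2.35 in the mESC list and 2.46 and 2.28 in the MEF list. Across the 1625 shared mESC members, the fold and the fold of the best MEF partner had a Spearman correlation of 0.49, beside 0.50 across the 39661 other shared mESC intervals. These points share their sequence, its mappability and the floor of the lists, so the correlation is a description.

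The folds of members were close to those of the other intervals. The median fold was 2.40 in mESC members and 2.41 in all other autosomal mESC intervals, and 2.35 in MEF members and 2.36 in the others. A fold above 4 was reached by 324 mESC members, which is 6.88% (6.17 to 7.64), against 7.78 percent of all autosomal mESC intervals. It was reached by 185 MEF members, which is 5.07% (4.38 to 5.83), against 5.72 percent of all autosomal MEF intervals. In protein-coding bodies 7.16% of the mESC intervals and 5.20% of the MEF intervals were above 4, and in the sequence outside both gene types 8.37% and 6.19% were. Both lincRNA shares thus stood near those of protein-coding bodies and below those of the sequence outside genes. A fold above 10 was reached by 26 mESC members, or 0.552% (0.361 to 0.808), and 5 MEF members, or 0.137% (0.0445 to 0.320). Among the other autosomal intervals it was reached by 0.482% in the mESC list and 0.284% in the MEF list, both inside the counting intervals of the members. The highest fold of all autosomal mESC intervals was the one in Platr22, while the highest MEF member ranked 28 among autosomal MEF intervals. Beside the sequences printed above, the mESC members of highest fold were a 50 bp interval in Gm45864, with a fold of 32.5 and 11884 copies of its central bases, and an interval with a unique centre in 4933436I20Rik, with a fold of 20.3. The other MEF members above a fold of 10 lay in AC154172.2 (15.9), D130009I18Rik (14.3) and Gm14461 (10.2). All of these lay in introns.

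**Figure D2:**
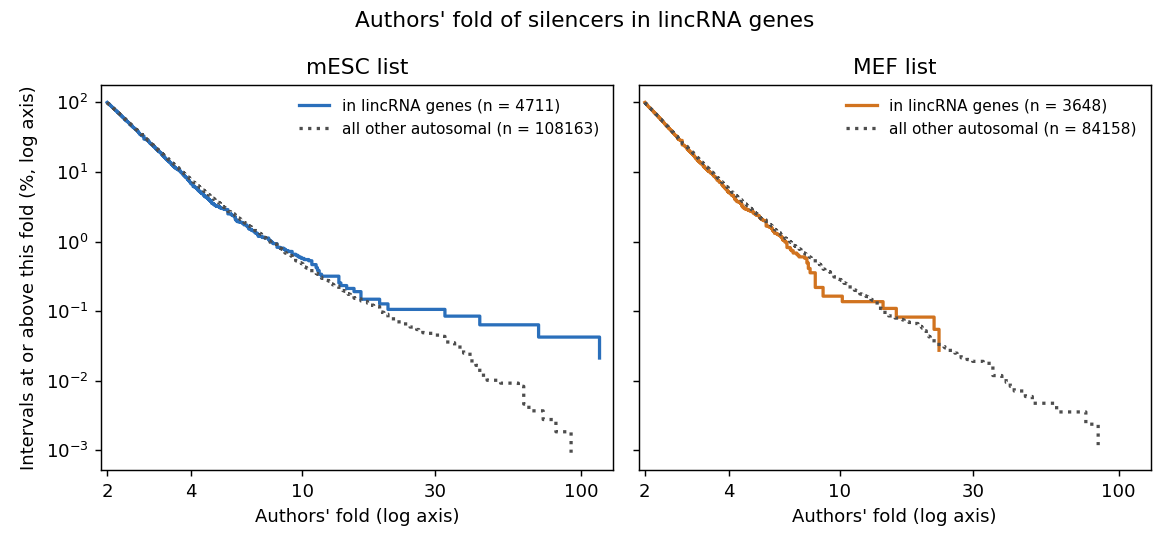
Share of intervals at or above a fold (vertical axis, percent, log scale) against the authors' fold (horizontal axis, log scale) for lincRNA members (solid) and all other autosomal intervals (dotted) in the mESC list and the MEF list. The curves run together at low folds; above a fold of 20 the mESC curve of members rests on 5 intervals, the highest at 117.

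Repeat content and fold moved together among members. Soft-masked bases, which the assembly marks as repeats, made up 37.7% of mESC member sequence and 35.8% of MEF member sequence, beside 41.5% and 38.7% in all other autosomal intervals. Of the mESC members, 915 held no masked base and 434 were fully masked. A fold above 4 was reached by 4.26% (3.05 to 5.78) of the mESC members without a masked base and by 15.7% (12.4 to 19.4) of the fully masked ones. In the MEF list 759 members held no masked base, of which 4.08% (2.79 to 5.75) were above 4, and 308 were fully masked, of which 8.44% (5.59 to 12.1) were. The other autosomal intervals showed the same order, with 6.21% and 14.0% in the mESC list and 5.10% and 10.8% in the MEF list.

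Sharing between the cell types did not follow masking in the same way. Among mESC members the overlap with the MEF list was 23.4% without masked bases, 38.3% with some but under 50%, 37.4% from 50% up and 30.6% when fully masked. The other autosomal mESC intervals had 25.1%, 39.7%, 40.9% and 30.9% in the same classes. Among MEF members the overlap with the mESC list was 30.3%, 47.1%, 52.1% and 51.3%, and among the other autosomal MEF intervals 32.2%, 48.6%, 55.6% and 48.6%. Members thus had the lower share in each class except for fully masked MEF intervals (45.6 to 57.0, beside 48.6%). The counting interval of the members held the other value in every class except mESC intervals masked from 50% up (34.5 to 40.4, beside 40.9%). Median lengths were 100, 250, 250 and 144 bp in mESC members and 100, 250, 242 and 145 bp in MEF members; the part of length in the shares was not tested.

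**Figure D3:**
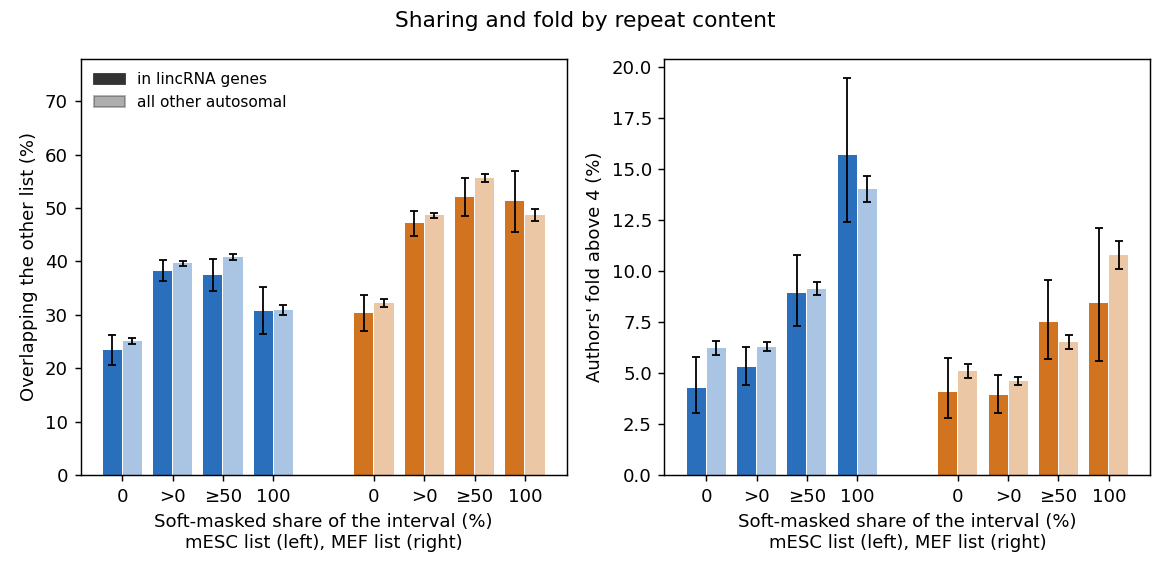
Share of intervals that overlap the other list (left panel, percent) and share with an authors' fold above 4 (right panel, percent) by soft-masked share of the interval: 0, above 0 to under 50%, 50 to under 100%, and 100%. Dark bars are lincRNA members and pale bars all other autosomal intervals, blue for mESC and orange for MEF, with 95% exact binomial intervals; fully masked mESC members reached 15.7% above 4, against 4.26% of those without masked bases.

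Copies of the central sequence were counted as a measure of how well the centre of an interval, not the whole of it, can be placed in the genome. The 32 bases at the centre of an interval occurred once in the chromosomes for 85.4% of mESC members and 86.8% of MEF members, and at least 10 times for 465 mESC members (9.87%) and 314 MEF members (8.61%). A fold above 4 was reached by 5.92% of mESC members with a unique centre and by 12.9% of those with at least 10 copies. In the MEF list these shares were 4.61% and 8.92%. The other autosomal intervals had the same order, with 7.00% and 12.9% in the mESC list and 5.21% and 9.54% in the MEF list. Of the 26 mESC members above a fold of 10, 15 (57.7%) had a unique centre, 9 (34.6%) had at least 10 copies and 5 (19.2%) overlapped the MEF list. Among the 521 other mESC intervals above 10 these shares were 65.1%, 27.8% and 32.1%. The centre of the Platr22 interval with the highest mESC fold had 1961 copies, and that of the Gm49736 interval 89. The MEF interval on the same Platr22 stretch had a unique centre, so the count depends on which 32 bases are central. The authors' treatment of reads with several positions is not given in the sources used here, and its part in the folds was not tested. With an exact stretch of 50 bp as the measure, 468 mESC members and 264 MEF members shared sequence with another member of their list. Another member of the same list lay within 5 kb for 39.9% of mESC members and 34.7% of MEF members. This share depends on density and was not computed for the other autosomal intervals, so it does not show clustering.

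Base composition was alike in members and other intervals. The GC content was 40.6% in mESC members and 40.4% in MEF members, beside 40.6% and 40.3% in all other autosomal intervals. The observed CpG count over that expected from base composition was 0.185 in mESC members and 0.187 in MEF members, beside 0.191 and 0.193. Interval lengths ran from 50 to 949 bp in mESC members and from 50 to 1199 bp in MEF members, with a median of 200 bp in both. The 3 longest were MEF members with folds near the floor, of 1199 bp in 1700028M03Rik (2.11), 1125 bp in Gm42903 (2.13) and 1056 bp in 4932411K12Rik (2.01).

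A search for 9 short motifs of factors with roles in these cells found small differences. Each motif was searched on both strands of a 300 bp window centred on the interval, and the shares of all other autosomal intervals of the same list are given beside those of members. TGANTCA, the site of AP-1, a factor induced by growth signals, was in 8.05% of mESC members and 9.54% of MEF members, beside 8.18% and 9.26%. GGAATG, the core of the TEAD site, was in 18.0% of mESC members and 17.7% of MEF members, beside 16.3% and 16.1%, and the other values lay below the counting intervals of the members in both lists (16.9 to 19.1 and 16.5 to 19.0). Among members of a single list this was not so: the TEAD share was 17.4% (16.1 to 18.8) in the mESC list and 16.7% (15.0 to 18.4) in the MEF list, beside 16.5% and 16.2% in the other list-only intervals. TTCNNNGAA, bound by BCL6 and STAT proteins, was in 9.76% and 10.9%, beside 9.05% and 9.58%. ATGCAAAT, the OCT octamer, was in 2.89% and 3.18%, beside 2.50% and 2.50%. ACAATGG, a SOX site, was in 5.01% and 5.26%, beside 4.79% and 4.92%. GCCATNTT, the YY1 site, was in 7.37% and 7.26%, beside 7.25% and 7.17%.

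The other motifs were rarer. CACGTG, the E-box of MYC-type factors, was in 2.67% of mESC members and 3.29% of MEF members, beside 2.50% and 2.81%. GGGCGG, the KLF and SP site, was in 2.40% and 2.47%, beside 2.87% and 2.58%. TGCCGC, the core of the ZFP57 site, was in 1.66% and 1.32%, beside 1.47% and 1.35%. Among members of a single list, AP-1 sites were in 7.94% (7.01 to 8.95) of the mESC windows and 10.5% (9.16 to 11.9) of the MEF windows, and these intervals did not overlap. In the other autosomal intervals of a single list the AP-1 shares were 8.07% and 9.87%. None of these shares was tested, and a match of letters is not a bound site.

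By gene, 2167 of the 5209 autosomal lincRNA genes (41.6%) held at least 1 member. The 5209 include 239 genes wholly inside protein-coding bodies, which by the rule can hold none. Of the genes with a member, 1263 held members of both lists, 555 of the mESC list only and 349 of the MEF list only. Gene length went with the number of members: genes with a member had a median length of 23.2 kb, and genes without had 3.92 kb, and across genes the Spearman correlation of length and members was 0.69 (n = 5209). A member was found in 17.6% of the 2961 genes under 10 kb, in 65.1% of the 1658 genes of 10 to 50 kb, in 95.4% of the 524 genes of 50 to 200 kb and in 65 of the 66 longer genes. Per Mb the same classes held 39.5, 42.6, 41.9 and 39.1 mESC members and 31.2, 33.5, 32.4 and 31.0 MEF members, so the density changed little with length. These densities count a member once for each lincRNA gene it lies in, over whole gene bodies. At least 10 members lay in 178 genes and at least 20 in 42.

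**Figure D4:**
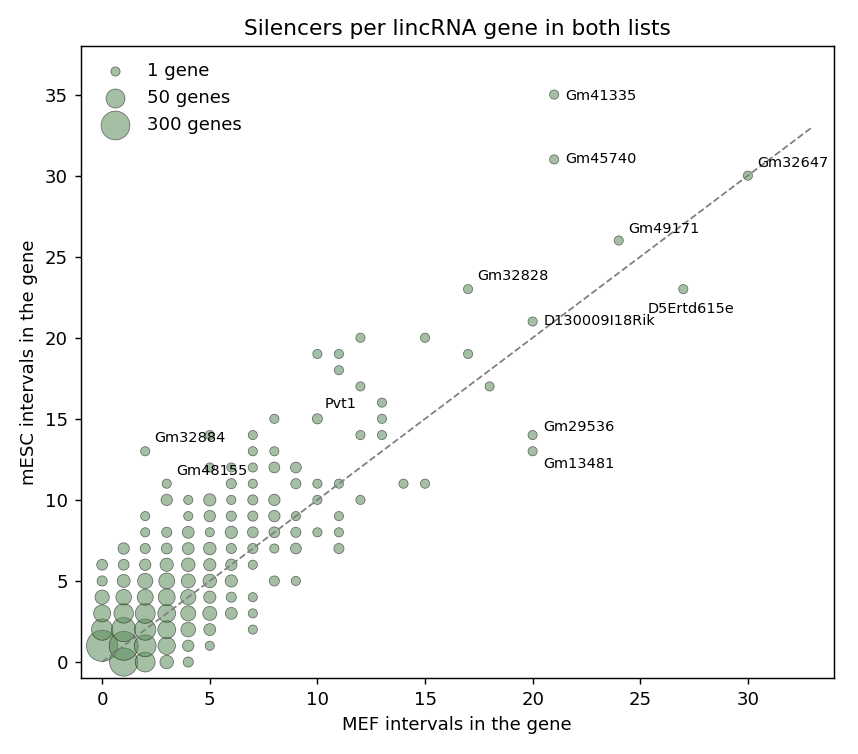
Members of the mESC list (vertical axis) against members of the MEF list (horizontal axis) in each lincRNA gene with at least 1 member; a circle is 1 combination of counts, its area grows with the number of genes there, and the dashed line marks equal counts. Gm32647 holds 30 of each list, and Gm41335 and Gm45740 hold more mESC intervals.

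The genes with the most members were long and little studied. Gm32647 on chromosome 7, 666 kb long and 961 kb from the nearest protein-coding gene Fam181b, held 30 mESC and 30 MEF members, of which 17 in each list overlapped the other list. Its folds ran from 2.01 to 9.48 in the mESC list, with 4 above 4, and from 2.04 to 8.71 in the MEF list, with 6 above 4. Gm41335 on chromosome 15, 541 kb long and 57.7 kb from Gsdmc, held 35 mESC and 21 MEF members, with highest folds of 5.02 and 6.22. Gm45740 on chromosome 8, 423 kb long, held 31 mESC and 21 MEF members, with highest folds of 8.13 and 6.13. None of the members of these 3 genes had its midpoint in an exon. Members lay along the whole of each gene, with a median distance between neighbours of 15.2, 15.2 and 8.49 kb in the mESC list and 15.3, 21.1 and 14.0 kb in the MEF list.

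The next genes had a like mix of both lists. D5Ertd615e held 23 mESC and 27 MEF members, Gm49171 26 and 24, D130009I18Rik 21 and 20, Gm32828 23 and 17, and Gm45341 19 and 17. Their lengths ran from 336 to 472 kb. D130009I18Rik also held the MEF member with a fold of 14.3, which was fully soft-masked, had a unique centre and did not overlap the mESC list.

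**Figure D5:**
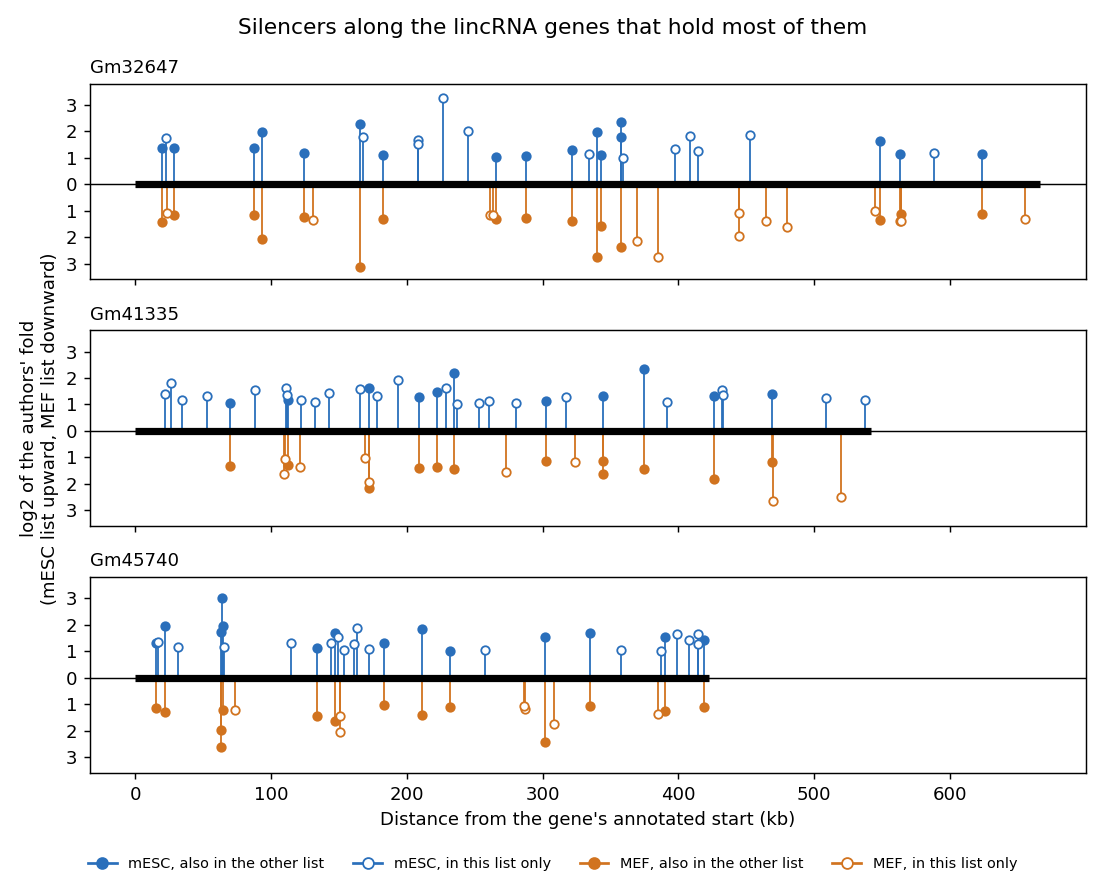
Members along Gm32647, Gm41335 and Gm45740, the lincRNA genes with most members, by distance from the annotated start in kb (horizontal axis; the black bar is the gene body). The height is log2 of the authors' fold, mESC members upward and MEF members downward; filled points overlap the other list, open points do not, and 17 members in each list of Gm32647 are filled.

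The genes with most members per 10 kb, among those with at least 5 over both lists, were short. This ranking favours short genes and counts a shared stretch in each list. As a class, genes under 10 kb were not denser than those of 10 to 50 kb. Platr23, a gene of 2.55 kb that starts 0.251 kb from Zfp281, a zinc finger factor of pluripotent cells, held 2 mESC and 3 MEF members, all of them in exons and free of masked bases. Its mESC folds were 2.40 and 2.01, and its MEF folds were 2.68, 2.50 and 2.47. The 100 bp mESC interval printed above lay wholly inside a MEF interval. Gm47770 (4.30 kb) held 2 mESC and 3 MEF members, all shared, with a highest fold of 4.91 in mESCs and 3.35 in MEFs. AC087871.1 (5.07 kb) held 3 and 2, again all shared, with folds of 2.22 to 2.52 and 2.78 to 2.88. Gm43129 (8.12 kb) held 4 and 2, and 4930519F24Rik (12.4 kb) held 4 and 4, with highest folds of 2.67 and 7.71.

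Whether a lincRNA gene held more intervals of a single cell type was tested per gene. The test took intervals that did not overlap the other list, in genes with at least 5 of them, by a two-sided exact binomial test against the genome-wide mESC share of 60.7%, with Benjamini-Hochberg adjustment over the 3527 protein-coding and lincRNA genes tested. Of the 292 lincRNA genes tested, 0 were called toward mESC and 0 toward MEF, against 0.0 percent of all genes in each direction, and the smallest adjusted p of this exact binomial test was 1.0. At an unadjusted p under 0.05, 3 lincRNA genes leaned to mESC and 3 to MEF, out of 43 and 83 over all genes. Over all members, 60.6% of the list-only intervals were mESC intervals, beside 60.7% among the other autosomal intervals. The lincRNA genes tested held a median of 7 list-only intervals and at most 33, so 0 calls do not show that the genes hold both lists alike. The test describes these 2 lists, since intervals of a gene are not replicates.

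The 6 lincRNA genes with the lowest p are given as values. Gm32884 held 11 mESC-only and 0 MEF-only intervals (exact binomial p = 0.00475 unadjusted, adjusted p = 1.0), Gm48155 held 8 and 0, and Gm11884 held 7 and 0. Gm35288 held 0 mESC-only and 5 MEF-only intervals (exact binomial p = 0.00936 unadjusted, adjusted p = 1.0), Gm13481 held 8 and 15, and Gm29536 held 7 and 13. Of the 13 mESC intervals of Gm32884, 77.9% of the bases were soft-masked, and 9 of the 13 had a unique centre.

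Known lincRNAs were looked up by lists of names. Of 21 autosomal genes of the pluripotency list (Platr genes and Lncenc1), 9 held a member, with 14 mESC and 18 MEF intervals, beside 41.6% of all lincRNA genes. Of the 9, 6 held mESC intervals and all held MEF intervals, beside 83.9% and 74.4% of all lincRNA genes with a member. Per Mb of body the list held 38.6 mESC and 49.6 MEF intervals, beside 41.4 and 32.4 over all lincRNA genes, with few genes behind these values. Platr22 held 5 mESC members with folds of 117, 2.71, 2.21, 2.06 and 2.02, and 3 MEF members with folds of 5.99, 2.48 and 2.41. The high value in each list belongs to the same stretch, since the MEF interval chr1:136702256-136702591 covers 295 of the 300 bases of the mESC interval. Both intervals were fully soft-masked. Platr1 held 2 mESC members with folds of 3.08 and 2.22 and 2 MEF members with folds of 4.00 and 2.72, all in exons and all shared. Platr28 held 3 mESC members with folds of 2.07 to 3.39 and 4 MEF members with folds of 2.09 to 2.44, and none of these 7 was shared. Over all members, 34.5% of mESC and 45.0% of MEF intervals were shared, so 7 intervals say little. Platr6 held 1 mESC member with a fold of 2.48 and 2 MEF members with folds of 2.72 and 2.13, and Platr20 held 1 in each list, with folds of 3.15 and 2.09. Lncenc1, a lincRNA of naive pluripotent cells, held no mESC member and 1 MEF member, with a fold of 2.33. Platr7 and Platr10 also held 1 MEF member each and no mESC member.

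Among 11 nuclear and widely expressed lincRNAs, 4 (36.4%) held members, with 23 mESC and 17 MEF intervals. Pvt1, a long gene 47.6 kb from Myc, held 15 mESC and 10 MEF members, of which 6 in each list were shared, with highest folds of 3.96 and 5.69. Lncpint, a target of the p53 pathway, held 7 and 5, with highest folds of 2.38 and 2.25. Neat1, the scaffold of nuclear paraspeckles, held 1 exonic member in each list, with folds of 2.05 and 2.27, where the 50 bp MEF interval lay inside the 300 bp mESC interval. Malat1, an abundant RNA of nuclear speckles, held no mESC member and 1 exonic MEF member, with a fold of 2.80. Miat, Trp53cor1 and the 5 Snhg genes in the list held none.

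Among 6 developmental lincRNAs, 5 (83.3%) held members, beside 41.6% of all lincRNA genes. They held 12 mESC and 7 MEF intervals, or 52.1 and 30.4 per Mb of body, beside 41.4 and 32.4. Few genes lie behind these values. Rmst and Pantr1, 94.1 and 104 kb long, are in the 50 to 200 kb class, where 95.4% of genes held a member. Rmst, a regulator of neural differentiation, held 6 mESC members with folds of 2.06 to 4.68 and 4 MEF members with folds of 2.06 to 2.61, and 3 in each list were shared. Pantr1, beside the neural factor gene Pou3f3, held 3 in each list, with highest folds of 2.43 and 2.34. Carmn held none. The HOX cluster lincRNAs Hottip and Hotair each held 1 mESC member, with folds of 2.32 and 2.98, and no MEF member. Bvht, a lincRNA of heart development, held 1 mESC member with a fold of 4.06, which was 50 bp long, fully soft-masked and had 11158 copies of its centre. Of the imprinted lincRNAs typed so in this annotation, Meg3 held 1 mESC member, with a fold of 2.05, and H19 and Mirg held none.

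MicroRNA host genes gave 3 of 7 with members (42.9%), near the 41.6% of all lincRNA genes, holding 9 mESC and 7 MEF intervals. Mir670hg held 6 and 5, with highest folds of 2.62 and 2.97. Mir155hg held 1 mESC member with a fold of 2.02 and 2 MEF members with folds of 3.36 and 2.01. Mir124-2hg held 2 mESC members with folds of 2.07 and 2.01 and no MEF member. Over all members, 5 mESC intervals and 1 MEF interval overlapped a microRNA gene. The share among the other autosomal intervals was not computed, so these counts are a description. The mESC intervals overlapped Mir9-2, Mir124a-2, Mir202, mmu-mir-7686, Gm27682 and Gm26259, and the MEF interval overlapped Gm26259. Since only 34.5% of all mESC members overlapped the MEF list, these few intervals do not show a difference between the cell types. Mir9-2 and Mir124a-2 encode microRNAs of neurons. The folds over Mir9-2 in C130071C03Rik and over Mir202 in Gm2044 were 2.61 and 2.63. The intervals over Mir9-2, Mir124a-2 and Mir202 held no masked base. In the 2 sequences, capitals mark the bases of the annotated hairpin gene, 26 of the 72 bases of Mir9-2 and 69 of the 109 bases of Mir124a-2.
Mir9-2, mESC list only, chr13:83738859-83739059: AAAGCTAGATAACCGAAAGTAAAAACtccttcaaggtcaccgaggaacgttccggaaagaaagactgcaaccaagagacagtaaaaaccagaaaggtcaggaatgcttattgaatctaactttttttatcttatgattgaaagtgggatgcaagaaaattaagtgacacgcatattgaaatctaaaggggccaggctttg
Mir124a-2, mESC list only, chr3:17795701-17795851: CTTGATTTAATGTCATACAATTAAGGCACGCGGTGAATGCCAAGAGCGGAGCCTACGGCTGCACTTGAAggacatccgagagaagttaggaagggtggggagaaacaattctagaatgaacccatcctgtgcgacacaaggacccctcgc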

How the data were processed

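The 2 tables analysed hold a chromosome, start, end and fold per silencer interval. Its fold is, per the file headers, a ratio computed and deposited by the authors. The submitters' processing notes name Bowtie2 and SAMtools, without versions, and hg38, while the design text names mm10. All intervals fell within mm10 chromosomes (0 beyond an end in each list), so mm10 was used. Caller, pooling of libraries, depth scaling and the divided libraries were not given in the sources used here. With no counts in the lists, depth is unknown and an interval has no error of its own. Starts were read as in BED files; 40.8% of mESC and 40.7% of MEF starts lie 1 past a multiple of 50, which leaves 1 bp of uncertainty.

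Midpoints were placed in GENCODE M21 basic gene models. Sequence, soft masking and copies of the central 32 bases came from GRCm38.p6 in RefSeq. Shared intervals had an overlap of at least 1 bp with the other list. The per-gene exact binomial test counted list-only intervals, since a shared interval is in both lists. Shares carry 95% exact binomial intervals and densities exact Poisson intervals. On simulated data the test made few false calls and missed most genes given a strongly changed share. Python 3.11.15, numpy 2.4.6, pandas 2.3.3, scipy 1.17.1 and statsmodels 0.14.6 were used.

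Members and name lists were chosen with earlier results of these data known. Named genes were the 8 with most members, the 5 with most members per 10 kb among genes with at least 5, the 3 lowest p in each direction, and genes of the name lists with a member. Named intervals were the 5 highest folds and 3 longest members, and members of the 3 genes with most. The longest stretch common to the 3 highest mESC folds, the intervals over microRNA genes and the classes by repeat content were chosen after values were seen. Alternatives changed the midpoint rule, the overlap, the fold, length and repeat filters and the motif window. Values per library were not analysed here.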

Additional observations from a re-analysis of the deposited data

Results flagged for a closer look

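Intervals on the sex chromosomes lie outside the rule. The lincRNA genes of the X and Y chromosomes, 645 in all, held 30 mESC intervals, with a median fold of 2.54, and 25 MEF intervals, with a median fold of 2.66. All of them were on the X chromosome. They are given because the description above does not use these data. Their share of all intervals on these chromosomes was not computed, so the counts show neither an excess nor a shortage.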

How the results depend on the processing

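No paired analysis was possible because each list is a single call set per cell type and its columns carry no library. The member count moved to between 4678 and 4979 in the mESC list and between 3620 and 3851 in the MEF list under another overlap rule, with protein-coding overlap allowed or with X and Y added. The values below moved beyond their counting interval. Restricted to folds from the median up, the density was 21.6 mESC and 17.0 MEF members per Mb, the exon share in mESCs was 3.71% and the share near starts in MEFs was 2.72%. The lower density was set by the restriction itself, which drops intervals over the same sequence. With overlap of 50% of both intervals, the shared part was 27.9% in mESCs and 36.0% in MEFs, and this stricter rule can only lower it. Under 50% masking, the shared part in MEFs was 42.2% and the median fold in mESCs was 2.37. The median mESC fold was 2.44 up to the median length and 2.38 with a unique centre, an alternative chosen after seeing the data. In 300 bp windows the GC content was 40.3% in mESCs and 40.1% in MEFs and masking was 37.1% and 35.1%, while in list-only members GC was 41.0% and 40.9% and masking 36.3% and 31.3%. The counting intervals of GC and masking count single bases, which are not independent within an interval. They are therefore too narrow, and small shifts fall outside them. Any of the 9 motifs was in 33.6% of whole mESC intervals and 35.1% of whole MEF intervals. Most whole intervals are shorter than the 300 bp window, with a median of 200 bp, so a lower share was largely set in advance. Apart from member counts, 26 values of the main results stayed within their interval and 20 moved, and 14 and 22 for single motifs. Shifts set by the alternative itself are counted among those that moved. The per-gene test called 0 genes in each direction under its 3 alternatives. The cause of the other shifts was not tested.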

Other observations

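Some members also lay in other noncoding genes. The midpoint lay in an antisense gene for 54 mESC and 43 MEF members, and in a gene typed processed transcript for 58 and 40. A processed pseudogene held the midpoint of 6 mESC and 11 MEF members, and a gene of small nuclear RNA that of 4 and 4. The 4 mESC members in small nuclear RNA genes had a median fold of 4.11, and the 4 MEF members 2.23. The MEF list held a member over the small nucleolar RNA gene Gm23443 in Gm12649, with a fold of 3.97, which the mESC list did not overlap. Mir202, a microRNA of the gonads, lay whole inside its mESC interval, with all 72 bases of the hairpin.

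The folds took few distinct values. The 4711 mESC members had 1198 distinct folds, and 89.2% of members shared their fold with another member. The commonest fold was 2.71, in 152 mESC members (3.23%), and the next 2.03, in 95. The 3648 MEF members had 1038 distinct folds, with 2.72 in 144 members (3.95%) and 2.04 in 88. The ratio of the commonest fold to the next was 1.33 in both lists. The other autosomal intervals had the same pair of commonest folds in each list, 2.71 and 2.03 in mESCs and 2.72 and 2.04 in MEFs.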
